A study of Mus musculus with 4 samples.

Results

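Myocardin (Myocd), its 2 relatives Mrtfa and Mrtfb, and serum response factor (Srf) were examined as 4 loci in a chromatin accessibility table of mouse hearts. Every peak that overlapped one of these genes, or lay within 50 kb of either end, was taken, which gave 99 of the 87948 peaks of the table. Of these, 42 lay at Myocd, 19 at Mrtfa, 28 at Mrtfb and 10 at Srf. The assay was ATAC-seq, which uses a transposase to place sequencing adapters in open chromatin. The samples were 2 heart libraries of Carm1 mutant mice and 2 of wild-type mice, all at postnatal day 14 (P14), an age the series' design text calls neonatal. Carm1 is an arginine methyltransferase that acts as a transcriptional coactivator; the labels do not give the allele, the part of the gene that was altered, any driver of the deletion, the strain, or how animals were assigned to libraries. The p-values below therefore set the genotype difference against the spread between these libraries, which need not be that between animals.

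SRF is a transcription factor of the MADS-box family that binds a short AT-rich element, the CArG box. It is a weak activator on its own and takes its tissue and signal response from cofactors. Myocardin is a strong SRF coactivator of cardiac and smooth muscle and sits in the nucleus. The myocardin-related factors MRTF-A and MRTF-B, encoded by Mrtfa and Mrtfb, bind monomeric actin and enter the nucleus when actin polymerises. Ternary complex factors of the ETS family compete with them for SRF at immediate early genes.

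The promoter sequences are shown because the strongest peaks of Srf, Mrtfa and Mrtfb lie on annotated start sites. RefSeq (GRCm38.p6, the assembly of mm10) gave 6 start sites for 3 of the 4 genes; Myocd had no entry. Each line gives the 250 bases before a start site, on the strand of the gene. Capitals mark matches, on either strand, to the CArG box, to the SP1-type GC box GGGCGG, to the CCAAT box that NF-Y binds, to the ETS core CCGGAA and to the AP-1 element TGANTCA. No match overlapped another.
Srf, chr17:46556163-46556412, minus strand: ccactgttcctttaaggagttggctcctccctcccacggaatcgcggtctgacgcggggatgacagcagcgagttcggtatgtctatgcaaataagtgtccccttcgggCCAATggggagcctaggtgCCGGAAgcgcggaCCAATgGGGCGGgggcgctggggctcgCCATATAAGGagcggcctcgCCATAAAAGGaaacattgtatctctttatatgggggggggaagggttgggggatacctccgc
Mrtfa, chr15:81190737-81190986, minus strand: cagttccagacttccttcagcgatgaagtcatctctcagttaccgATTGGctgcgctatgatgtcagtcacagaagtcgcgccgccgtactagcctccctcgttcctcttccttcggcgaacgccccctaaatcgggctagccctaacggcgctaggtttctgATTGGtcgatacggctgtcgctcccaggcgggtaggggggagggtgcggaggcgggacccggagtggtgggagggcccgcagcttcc
Mrtfb first start site, chr16:13256231-13256480, plus strand: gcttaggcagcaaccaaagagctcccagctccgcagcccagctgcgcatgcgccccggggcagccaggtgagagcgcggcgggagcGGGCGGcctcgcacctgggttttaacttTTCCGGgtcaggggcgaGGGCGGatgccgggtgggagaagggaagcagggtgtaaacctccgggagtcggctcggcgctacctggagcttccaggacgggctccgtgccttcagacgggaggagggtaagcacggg
Mrtfb internal start site, chr16:13358171-13358420, plus strand: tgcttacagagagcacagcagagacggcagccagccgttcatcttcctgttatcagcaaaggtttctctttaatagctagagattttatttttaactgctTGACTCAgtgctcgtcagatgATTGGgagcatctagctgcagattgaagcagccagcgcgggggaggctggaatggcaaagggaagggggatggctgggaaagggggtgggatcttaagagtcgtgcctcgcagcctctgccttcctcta

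The Srf promoter held 2 CArG boxes, from -82 to -73 and from -62 to -53 counted from the start site. A CArG box occurred in 1.47% of the 32851 windows of this length in the promoter table. Ahead of these boxes the Srf window held 2 CCAAT boxes, 1 GC box and, at -122 to -117, 1 ETS core. The Mrtfa window printed held 2 CCAAT boxes, and that of the first Mrtfb start site 2 GC boxes and 1 ETS core. The internal Mrtfb window differed from the first in holding 1 AP-1 element, which 6.75% of all windows hold, and 1 CCAAT box, and in its GC content of 52% against 68.8%. The GC box was found in 32.7% of all windows, the CCAAT box in 33.8% and the ETS core in 12%. None of the windows of Mrtfa and Mrtfb held a match to the CArG box. These matches describe the letters only.

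The table held raw read counts, with 15945420 to 19091969 counts in peaks per library. Values are given as CPM, read counts scaled by the TMM-adjusted library size, on which 1 read was worth 0.0516 to 0.0631 CPM. Member peaks held 7 to 2708 reads per library. At all 10 cardiomyocyte markers examined, a peak lay no more than 1 kb from a gene end, with a median of 75.4 CPM. Such a peak was found at 9 of 10 smooth muscle and pericyte markers (median 9.37 CPM; none at Cnn1), 7 of 8 endothelial markers (16.5 CPM; none at Erg), 7 of 7 fibroblast markers (9.99 CPM) and 1 of 6 leukocyte markers (none at Ptprc, Csf1r, Adgre1, Lyz2 and Cd3e). Heart tissue is a mixture, and fewer cells with an open locus cannot be told apart from a locus that is less open in each cell.

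The peaks were chosen by position, but the family was taken up because a cluster of higher peaks at Myocd was already known from the same comparison of mutant with wild type. Calls and fold changes of the members are therefore a description and carry no test. A peak is called where edgeR's quasi-likelihood test over all peaks gives a Benjamini-Hochberg adjusted p under 0.05. Of all peaks, 5.5% were called, 3.05% higher and 2.45% lower in the mutant. Among the 99 member peaks 8 were called higher (8.08%) and 2 lower (2.02%), and their median log2 fold change (mutant over wild type) was 0.07, against 0.00 over all peaks. Of the 8 higher peaks, 7 lay at Myocd. The 2 lower peaks lay at Mrtfb, and Mrtfa and Srf had no called peak. Both mutant libraries lay above both wild-type libraries at 35 member peaks and below them at 14, which is 35.4% and 14.1%, where all peaks gave 25.8% and 25.7%. With 2 libraries against 2, an exact two-sided permutation test of a single value cannot go below p = 0.333.

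**Figure D1:**
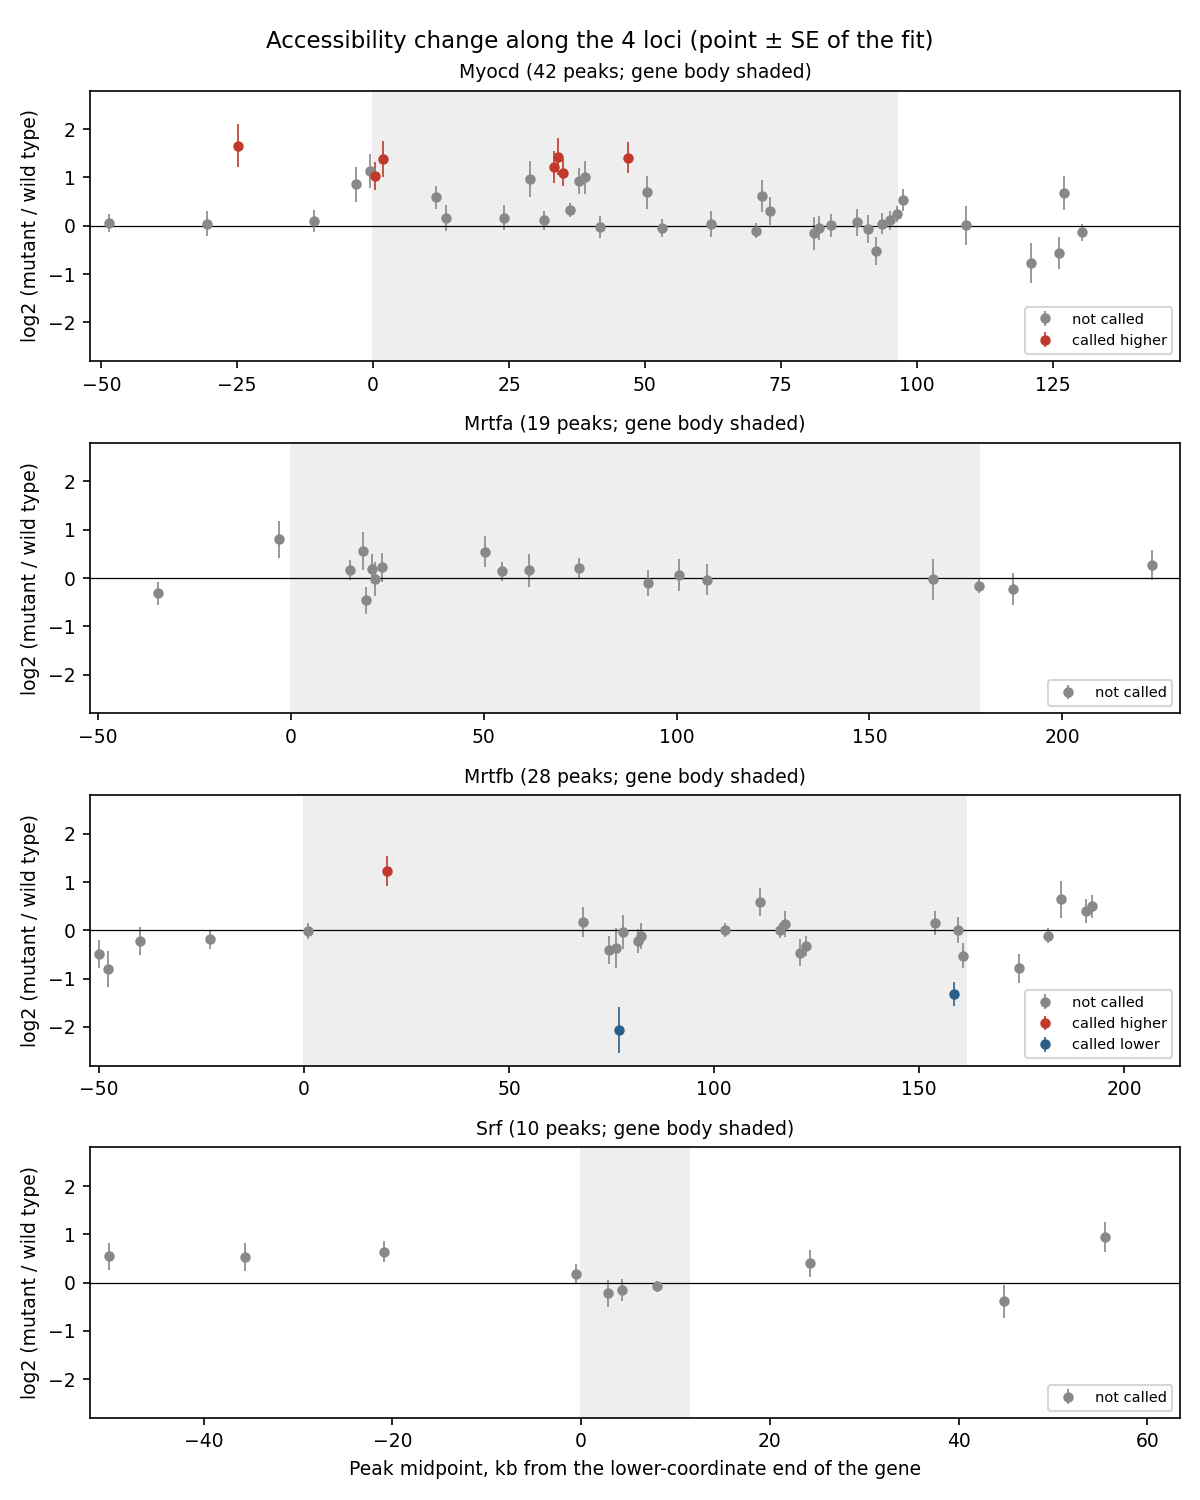
Log2 fold change of each peak (mutant over wild type, ± SE) against its midpoint in kb from the lower-coordinate end of the gene, with the gene body shaded. The 7 called peaks of Myocd lie in the lower-coordinate part of its locus, and the 10 peaks at Srf and 19 at Mrtfa hold no call.

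At Myocd (chromosome 11, 65173608 to 65269989, mm10), the peaks called higher in the mutant lay in the lower-coordinate part of the locus. Because Myocd had no start site entry, neither end of the gene is named here as its promoter. None of the 42 peaks was called lower, and 32 had a positive log2 fold change. The 7 called higher were 16.7% of them, against 3.05% of all peaks. Both mutant libraries lay above both wild-type libraries at 19 peaks (45.2%), below them at 4 (9.52%), and the ranges overlapped at 19. Over all peaks, 25.8% had both mutant libraries above and 25.7% below. The 7 called peaks spanned 72222 bp, from 65148619 to 65220841. Within that span lay 19 peaks with a median log2 fold change of 0.97, of which 18 were positive. The 21 peaks further up, to 65304425, had a median of 0.01 and ranged from -0.77 to 0.69. That division was drawn after the values were seen. Called peaks set the ends of the span and all 7 are among the 19, so its median is not independent of the calls. The strong peak at 65204234 to 65205758, also in the span, had 37.7 and 36.3 CPM in the mutant. It had 24.8 and 43.6 CPM in the wild type (log2 fold change 0.11, SE 0.19), with overlap.

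The peak at 65208134 to 65208940, 34526 bp inside the gene from its lower end, had 11.5 and 7.57 CPM in the mutant libraries, against 5.26 and 3.66 CPM in the wild-type libraries (log2 fold change 1.10, SE 0.28). It was the most accessible of the called peaks of Myocd. Immediately below it, the peak at 65207431 to 65207850 had 5.35 and 3.34 CPM in the mutant and 1.19 and 2.01 CPM in the wild type (log2 fold change 1.43, SE 0.38). The next, at 65206533 to 65207071, had 6.14 and 4.04 CPM in the mutant and 2.26 and 2.12 CPM in the wild type (log2 fold change 1.22, SE 0.33). In all 3 peaks the lower mutant library still lay above the higher wild-type library, and mutant replicate 1 lay well above mutant replicate 2.

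These 3 peaks belong to a run of 7 peaks, with gaps of 102 to 775 bp, that covers 8582 bp of Myocd around its strongest peak. All 7 had positive log2 fold changes, with a median of 1.0, and 6 of them had both mutant libraries above both wild-type libraries. The strongest peak itself, at 65209174 to 65210584, had 53.5 and 55.6 CPM in the mutant, against 37.3 and 49.6 CPM in the wild type (log2 fold change 0.33, SE 0.15), and was not called. Its mean was 54.5 ± 1.5 CPM in the mutant and 43.5 ± 8.66 CPM in the wild type (SD, n = 2 each), so the difference was close to the spread of the wild-type pair.

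Higher in coordinate, near the middle of the gene, the peak at 65220012 to 65220841 had 5.96 and 5.87 CPM in the mutant and 2.60 and 1.86 CPM in the wild type (log2 fold change 1.41, SE 0.32). At the lower end of Myocd, the peak at 65173686 to 65174368 had 7.0 and 5.74 CPM in the mutant and 3.45 and 2.84 CPM in the wild type (log2 fold change 1.02, SE 0.29). The peak 1614 bp inside that end, at 65175222 to 65175721, had 5.11 and 3.03 CPM in the mutant and 1.41 and 1.70 CPM in the wild type (log2 fold change 1.38, SE 0.38). The groups did not overlap at any of these peaks. Just outside the lower end, the peak at 65172877 to 65173363 had 4.08 and 3.66 CPM in the mutant and 1.64 and 1.86 CPM in the wild type (log2 fold change 1.14, SE 0.35) and fell just short of the call. The threshold ran between the peak at 65173686, with an adjusted p of 0.0456 in edgeR, and that at 65210821, with 0.0507 and a log2 fold change of 0.93.

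The remaining called peak of the Myocd locus (65148619 to 65148854) lay 24754 bp below the gene, within its neighbour Arhgap44 and the lncRNA gene 1700086D15Rik. It had 43 and 41 reads in the mutant libraries, against 21 and 9 reads in the wild-type libraries (log2 fold change 1.66, SE 0.45). This was the largest positive log2 fold change of the locus and rested on the fewest reads of the 7. The largest negative value, -0.77 (SE 0.42), belonged to a weak peak 24500 bp above the gene, with 2.13 and 0.946 CPM in the mutant and 2.15 and 3.10 CPM in the wild type. That peak was not called.

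At the upper-coordinate end of Myocd the genotypes were closer. The peak on the end (65269223 to 65270769) had 29.6 and 23.7 CPM in the mutant, against 21.1 and 24.1 CPM in the wild type (log2 fold change 0.24, SE 0.17). Its neighbour inside the gene (65268107 to 65269104) had 20.9 and 16.5 CPM in the mutant and 19 and 15.7 CPM in the wild type (log2 fold change 0.11, SE 0.19). The genotypes overlapped at both. The peak 913 bp outside the end (65270902 to 65271321) had 10.5 CPM in each mutant library and 7.13 and 7.22 CPM in the wild-type libraries (log2 fold change 0.54, SE 0.23), without overlap and without a call.

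The called peaks of Myocd were weak ones. Their wild-type means lay between 0.826 and 4.46 CPM. The 10 Myocd peaks with a wild-type mean of 10 CPM or more held no call, with log2 fold changes from -0.14 to 0.33. The 19 with a wild-type mean under 5 CPM had a median of 0.97 and held all 7 calls. The wild-type mean also enters the fold change, so sorting by it favours positive values among weak peaks. By the mean of all 4 libraries, the 11 Myocd peaks at 10 CPM or more held no call, with log2 fold changes from -0.14 to 0.59. The 31 under 10 CPM held all 7 calls, with a median of 0.54. Among the 40713 peaks of the whole table under 5 CPM in the wild type, 4.15% were called higher and 1.51% lower, with a median log2 fold change of 0.03. Among the 25776 peaks of the table at 10 CPM or more in the wild type, 2.08% were called higher and 3.32% lower.

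**Figure D2:**
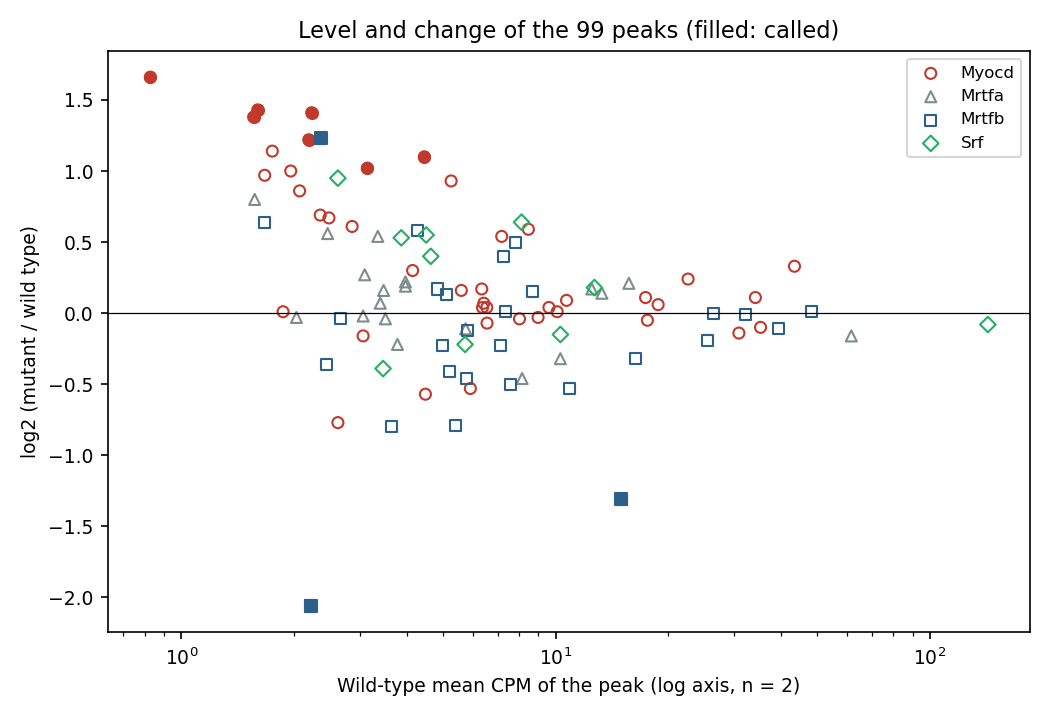
Log2 fold change (mutant over wild type) of each of the 99 peaks against its mean CPM in the wild type, on a log axis, with called peaks filled. The 7 called Myocd peaks sit at 0.826 to 4.46 CPM, and the strongest peak of each locus lies between -0.16 and 0.33 on the vertical axis. The wild-type mean enters both axes.

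The number of higher calls at Myocd hung on single libraries. Without wild-type replicate 2 none of the 42 peaks was called, without mutant replicate 1 there were 2, without wild-type replicate 1 there were 4, and without mutant replicate 2 there were 9. No peak was called in all 4 of these fits. Without wild-type replicate 2 the median log2 fold change of the locus was nevertheless 0.36, above the 0.17 with all libraries, while leaving out mutant replicate 1 gave 0.10 and leaving out mutant replicate 2 gave 0.31. DESeq2 called 1 of the 42 peaks and limma voom 4. The share of all peaks called in each of these fits is not given here, so the shifts cannot be read as particular to Myocd. In the 4 fits with a library left out, the 7 peaks kept log2 fold changes of 0.77 to 2.47, the widest range, 1.13 to 2.47, being that of the peak in Arhgap44.

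**Figure D3:**
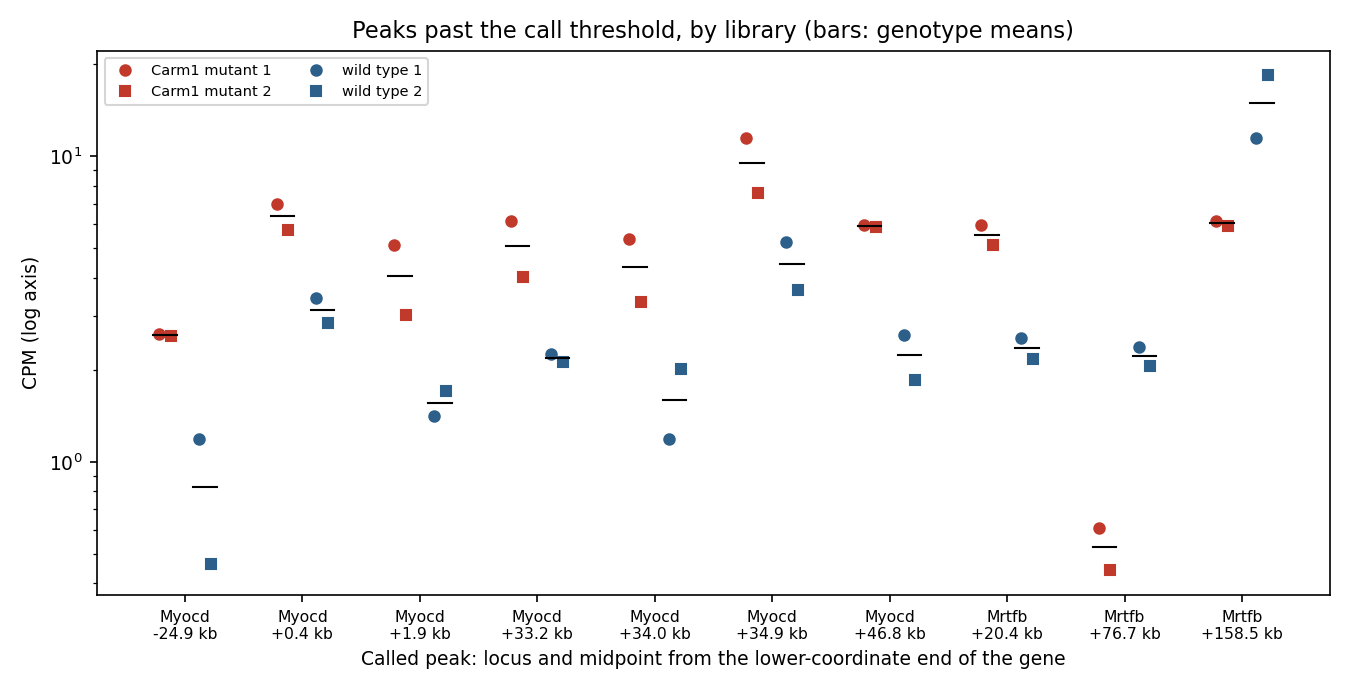
CPM (log axis) of the 10 called peaks in each of the 4 libraries, with bars at the genotype means; peaks are named by locus and by the distance of their midpoint from the lower-coordinate end of the gene. The mutant libraries lie above the wild-type libraries at 8 peaks and below them at 2 peaks of Mrtfb.

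At Mrtfb (chromosome 16, 13256056 to 13417529), which encodes the actin-regulated coactivator MRTF-B, single peaks were called in both directions, while the peaks on its start sites were not called. Of 28 peaks, 1 was called higher (3.57%) and 2 lower (7.14%), against 3.05% and 2.45% of all peaks, and 25 were not called. The median log2 fold change was -0.11, with 18 negative and 10 positive values. Both mutant libraries lay above both wild-type libraries at 6 peaks (21.4%) and below them at 8 (28.6%). Over all peaks these shares were close, at 25.8% and 25.7%.

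Of the peaks of Mrtfb called lower, the one with the smaller SE lay 2626 bp inside the upper end (13414180 to 13414903), also within the lncRNA gene Gm15738. It had 6.14 and 5.93 CPM in the mutant libraries, against 11.5 and 18.4 CPM in the wild-type libraries (log2 fold change -1.31, SE 0.25). The mutant pair agreed closely and the wild-type pair was spread, and without wild-type replicate 2 the log2 fold change was -0.93 and the call was lost. The next peak up, at 13415013 to 13416114, had a log2 fold change of 0.01 (SE 0.27). At the upper gene end itself, 13416411 to 13416924, the mutant libraries had 8.88 and 6.25 CPM and the wild-type libraries 8.49 and 13.4 CPM (log2 fold change -0.53, SE 0.26), with overlap.

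The other peak of Mrtfb called lower, near the middle of the gene (13332651 to 13332905), had the lowest mutant mean of the locus. It held 10 and 7 reads in the mutant libraries, against 42 and 40 reads in the wild-type libraries (log2 fold change -2.06, SE 0.47), the largest change among the 99 peaks. With cyclic loess offsets its log2 fold change was -1.36, and it was then no longer called; neither was it with DESeq2 or without either wild-type library. The higher peak, 20121 bp inside the lower end (13276177 to 13276710), had 5.96 and 5.11 CPM in the mutant and 2.55 and 2.17 CPM in the wild type (log2 fold change 1.23, SE 0.31). Its value stayed between 1.12 and 1.35 whichever library was left out, and the call held in 1 of these 4 fits, that without mutant replicate 2.

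At the start sites of Mrtfb the libraries of the genotypes overlapped. The peak on its first start site (13255840 to 13258504) covers both the 13256481 and the 13256560 start and had 37.3 and 26.8 CPM in the mutant, against 35.0 and 29.5 CPM in the wild type (log2 fold change -0.01, SE 0.17). The internal start site at 13358421 lies in the strongest peak of the locus, 13357424 to 13359963, with 51.2 and 45.9 CPM in the mutant and 52.4 and 44.3 CPM in the wild type (log2 fold change 0.01, SE 0.15). In both peaks the 2 libraries of a genotype differed by more than the genotype means. The window of Mrtfb also reaches the microRNA gene Mir193b. Its nearest peak, 780 bp away (13447473 to 13448743), had 12.9 and 9.15 CPM in the mutant and 7.24 and 8.36 CPM in the wild type (log2 fold change 0.50, SE 0.24) and was not called.

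At Mrtfa (chromosome 15, 81012281 to 81190736), which encodes MRTF-A, no peak was called in any of the fits with all 4 libraries or with 1 left out. Its 19 peaks had a median log2 fold change of 0.14 and ranged from -0.46 to 0.80. The ranges of the genotypes overlapped at 14 of them. Both mutant libraries lay above both wild-type libraries at 4 (21.1%) and below them at 1 (5.26%), where all peaks gave 25.8% and 25.7%. The strongest peak, on the start site at the upper end (81190081 to 81191485), had 48.3 and 62.0 CPM in the mutant, against 58.4 and 65.0 CPM in the wild type (log2 fold change -0.16, SE 0.15). A second annotated start site, at 81105047, lies in a weak peak (81104713 to 81105275) with 4.81 and 5.87 CPM in the mutant and 5.15 and 6.35 CPM in the wild type (log2 fold change -0.11, SE 0.27). The genotypes overlapped at both start sites. The largest positive value of the locus, 0.80 (SE 0.38), belonged to a peak within the neighbouring gene Sgsm3, with 2.55 and 2.90 CPM in the mutant and 1.58 and 1.55 CPM in the wild type.

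At Srf (chromosome 17, 46546838 to 46558267), the DNA-binding partner of the family, none of 10 peaks was called. The promoter printed above lies inside the widest peak of the 4 loci, 4431 bp from 46552584 to 46557015. That peak, which also holds the microRNA gene Mir6976, had 128 and 143 CPM in the mutant libraries, against 146 and 140 CPM in the wild-type libraries (log2 fold change -0.08, SE 0.12). Whichever library was left out, its log2 fold change lay between -0.16 and 0.00. The peak at the lower end of Srf (46545671 to 46547071), shared with its neighbour Cul9, had 15.1 and 13.7 CPM in the mutant and 12.6 and 12.8 CPM in the wild type (log2 fold change 0.18, SE 0.20).

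Only 4 of the 10 Srf peaks overlap the gene, and the other 6 overlap Dnph1, Cul9 or Ptk7. Both mutant libraries lay above both wild-type libraries at 6 peaks of the window (60%), where all peaks gave 25.8%. They lay below at 1 (10%), against 25.7% of all peaks. The median log2 fold change was 0.29, but over the 4 peaks in the gene body it was -0.11. The largest value belonged to a peak within Ptk7, 43920 bp above Srf, with 4.62 and 5.55 CPM in the mutant and 2.72 and 2.53 CPM in the wild type (log2 fold change 0.95, SE 0.31).

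Summed over all peaks of a locus, Myocd was the only one of the 4 at which both mutant libraries lay above both wild-type libraries, and by a narrow margin. The share of all genes whose sums separate in this way is not given here, and over single peaks it was 25.8%. This separation therefore cannot be read as particular to Myocd. The sums of Myocd were 469 and 408 CPM in the mutant, against 359 and 400 CPM in the wild type (log2 fold change 0.21, SE 0.08). Mutant replicate 2 and wild-type replicate 2 were nearly equal, and without mutant replicate 1 the log2 fold change was 0.10, while leaving out mutant replicate 2 gave 0.31. Mrtfb summed to 311 and 280 CPM in the mutant and 324 and 309 CPM in the wild type (log2 fold change -0.10, SE 0.08). Mrtfa had 143 and 186 CPM in the mutant and 156 and 174 CPM in the wild type (log2 fold change 0.00, SE 0.11), with the mutant pair spread around the wild-type pair. The sums at Srf were 193 and 213 CPM in the mutant and 205 and 193 CPM in the wild type (log2 fold change 0.03, SE 0.08).

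**Figure D4:**
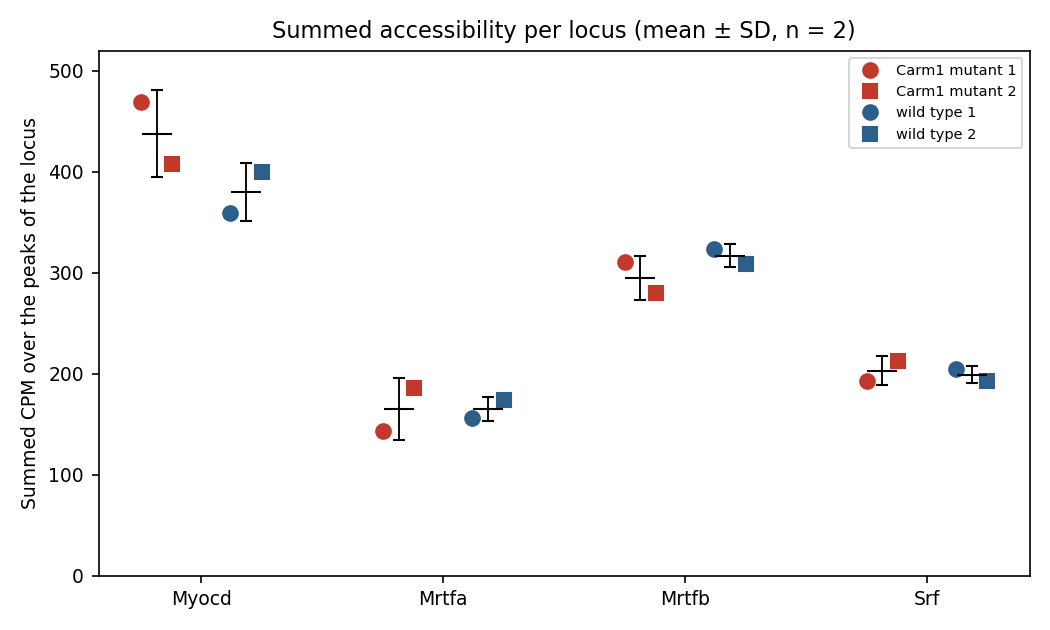
CPM summed over the peaks of each locus in each library, with the mean and SD of the genotypes (n = 2 each). At Myocd the mutant libraries reach 469 and 408 CPM and the wild-type libraries 359 and 400 CPM, and at the other 3 loci the genotypes overlap.

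Per kb of peak width the order of levels in the wild type was Srf at 17.9 ± 0.75, Mrtfa at 15.3 ± 1.12, Mrtfb at 14.4 ± 0.504 and Myocd at 12.4 ± 0.947 CPM per kb (SD, n = 2). Mrtfa and Mrtfb overlapped in this order; Srf lay above Mrtfa, and Mrtfb above Myocd, in both wild-type libraries. In the mutant, Srf had 18.2 ± 1.28, Mrtfa 15.2 ± 2.84, Myocd 14.3 ± 1.41 and Mrtfb 13.4 ± 0.992 CPM per kb, and the ranges of Mrtfa, Myocd and Mrtfb overlapped. Myocd was the locus densest in peaks, with 21.4 per 100 kb of window, against 10.7 at Mrtfb, 8.97 at Srf and 6.82 at Mrtfa.

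Marker peaks of muscle cells, the cells myocardin is known from, stand beside these sums as follows. Gene-end peaks of the 10 cardiomyocyte markers summed to 1060 and 916 CPM in the mutant, against 874 and 830 CPM in the wild type, with a median log2 fold change of 0.24 and no call. Those of the smooth muscle and pericyte markers summed to 127 and 124 CPM in the mutant and 109 and 115 CPM in the wild type (median 0.07, no call). Endothelial markers summed to 183 and 188 CPM in the mutant and 247 and 169 CPM in the wild type (median -0.29, 1 lower call), and fibroblast markers to 81.9 and 97.7 CPM in the mutant and 80.0 and 87.9 CPM in the wild type. The gene-end peak of the single leukocyte marker that had one, Cd68, gave 82.4 and 86.7 CPM in the mutant and 84.5 and 75.6 CPM in the wild type. In the 50 kb window used for Myocd, the cardiomyocyte markers had 20 higher and 3 lower calls among 458 peaks (4.37% and 0.655%), and their sums were 7710 and 6680 CPM in the mutant, against 6530 and 6040 CPM in the wild type. The smooth muscle and pericyte markers had 5 higher calls and 1 lower call among 140 peaks in that window (3.57% and 0.714%). Over all peaks 3.05% were called higher and 2.45% lower. The endothelial markers had 2 higher and 5 lower calls among 159 peaks (1.26% and 3.14%), and the fibroblast markers 1 higher among 64 (1.56%). The leukocyte markers had none among 36, where 2 had an unadjusted p under 0.05 in edgeR. Of the markers, Myh6, Tnnt2, Ryr2 and Myl2 are also among the cardiac targets below. Myh11, Acta2, Tagln, Cnn1 and Lmod1 are also among the smooth muscle targets. Myh6 and Tnnt2 were already described from these data, so marker counts and list counts are not independent. The part of cell composition in the Myocd result was not tested.

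Among 4886 genes with at least 5 assigned peaks, the 5 with the library profile most like that of Myocd were Cfl2, Btbd16, Anapc7, Sntg2 and Myom3. The measure was the Euclidean distance between centred log2 summed CPM over the 4 libraries, and these distances were 0.03 to 0.05, against 0.36 for Mrtfb and 0.49 for Mrtfa. The profile they share has mutant replicate 1 highest and wild-type replicate 1 lowest, with deviations of 0.21 and -0.20 for Myocd, and mutant replicate 2 and wild-type replicate 2 in between. With only peaks inside gene bodies, 0 of these 5 genes stayed among the nearest 5, which were then Bmper, Marchf3, Ank3, Pde5a and Ntn1. Cfl2 and Anapc7 were not ranked in that setting, so they could not stay. Among the 3092 genes ranked there, Btbd16 came at 16, Myom3 at 39 and Sntg2 at 46.

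The wider pathway was followed with 6 lists of 86 genes and the same 50 kb window, 1823 peaks in all. Of these, 54 rose (2.96%) and 20 fell (1.1%), with a median log2 fold change of 0.04. Over all peaks the shares were 3.05% and 2.45%, so the higher share of the lists was close to that of the table. These counts hung on single libraries too: leaving out a mutant library gave 92 higher and 40 lower peaks (replicate 1) or 118 higher and 43 lower (replicate 2), and leaving out a wild-type library gave 26 higher and 9 lower (replicate 1) or 12 higher and 1 lower (replicate 2). DESeq2 called 34 higher and 9 lower. The share of all peaks called in each of these fits is not given here. The shifts, here and in the single lists below, therefore cannot be read as particular to the lists. The lists were written with earlier results of these data known, and Ankrd1, Actc1, Nppa, Nppb, Tnnt2, Myh6, Myh7 and Tpm1 were among the genes already described. Their counts are no independent evidence of a direction.

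Near genes that feed actin signals to the MRTFs, peaks were called in both directions. Of 495 peaks near 20 genes, 6 rose (1.21%) and 8 fell (1.62%), both shares under those of the whole table, with a median of 0.01 on the log2 scale. Leaving out 1 mutant library gave 18 higher and 13 lower calls (replicate 1) or 16 and 10 (replicate 2), and leaving out 1 wild-type library gave 2 and 2 (replicate 1) or 2 and 0 (replicate 2). The rise with the smallest p was a peak in Tmsb4x (chromosome X, 167207160 to 167207555), which encodes the actin-monomer-binding thymosin beta 4, with 4.2 and 3.72 CPM in the mutant and 0.622 and 0.774 CPM in the wild type (log2 fold change 2.49, SE 0.41, edgeR adjusted p = 0.00198). Ablim1, an actin-binding LIM protein gene, had 4 of the 8 lower peaks and 111 of the 495 peaks of the list. That with the smallest p (chromosome 19, 57296545 to 57297019) had 3.89 and 2.71 CPM in the mutant and 7.19 and 8.88 CPM in the wild type (log2 fold change -1.28, SE 0.29, edgeR adjusted p = 0.0136). Leaving out wild-type replicate 2 raised that adjusted p to 0.145 in edgeR. Cfl2, a cofilin gene named above for its profile, had 1 lower peak among its 8.

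Near cytoskeletal target genes of MRTF and SRF, 15 of 376 peaks rose (3.99%) at 9 genes and 4 fell (1.06%) at 4 genes. The median was 0.10, and the shares over all peaks were 3.05% and 2.45%. Leaving out 1 library gave 5 higher calls (either wild-type library) to 25 (mutant replicate 1) and 1 lower call (wild-type replicate 2) to 9 (mutant replicate 2). Ccn2, the connective tissue growth factor gene, had 3 of the higher peaks. One of them, 107 bp from the gene (chromosome 10, 24598790 to 24600311), had 19.5 and 21.7 CPM in the mutant and 9.34 and 7.38 CPM in the wild type (log2 fold change 1.30, SE 0.21, edgeR adjusted p = 0.00169). Tpm1, a tropomyosin gene, had 3 higher peaks of 25, with log2 fold changes from 0.94 to 1.54. The lowest p among the falls was at a peak in Polr2e, 41033 bp from the calponin gene Cnn2 (chromosome 10, 80036433 to 80037636), with 11.4 and 16.7 CPM in the mutant and 28.9 and 29.1 CPM in the wild type (log2 fold change -1.05, SE 0.19, edgeR adjusted p = 0.00431).

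Smooth muscle targets of myocardin had 7 higher (3.17%) and 2 lower (0.905%) peaks of 221, with a median of 0.00. The higher share was close to the 3.05% of all peaks, of which 2.45% were lower. Leaving out 1 library gave 1 higher and 0 lower calls (wild-type replicate 2) to 14 higher and 8 lower (mutant replicate 2). Synpo2, an actin-bundling protein gene, had 4 of the higher peaks, from 0.62 to 1.46 on the log2 scale. A weak peak in Cep20, 11549 bp from the smooth muscle myosin gene Myh11 (chromosome 16, 14303737 to 14303961), had 1.28 and 5.17 CPM in the mutant and 0.396 and 0.258 CPM in the wild type (log2 fold change 3.28, SE 0.61, edgeR adjusted p = 0.00466). Its mutant pair was far apart, and leaving out replicate 2 of the mutant brought the log2 fold change to 1.95, leaving out replicate 1 to 3.97. Both lower peaks lay in or near Mylk, the myosin light chain kinase gene. The one with the smaller p (chromosome 16, 34904877 to 34905240) had 2.13 and 2.78 CPM in the mutant and 6.17 and 5.37 CPM in the wild type (log2 fold change -1.23, SE 0.31, edgeR adjusted p = 0.0253). That call was lost with DESeq2 and without either wild-type library or mutant replicate 1, at adjusted p-values up to 0.159.

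Near cardiac targets 23 of 489 peaks rose (4.70%) at 10 genes and 5 fell (1.02%) at 2 genes, with a median of 0.04. Over all peaks the shares were 3.05% and 2.45%. Leaving out 1 mutant library gave 29 higher and 15 lower calls (replicate 1) or 57 and 12 (replicate 2), and leaving out 1 wild-type library gave 17 and 3 (replicate 1) or 4 and 0 (replicate 2). Ankrd1, a stress-responsive sarcomere gene, and Tnnt2, the cardiac troponin T gene, had 5 higher peaks each. The windows of Nppa and Nppb, which encode natriuretic peptides, shared 4 higher peaks, and Myl2, a ventricular myosin light chain gene, had 3. The peak with the smallest p overlapped Ankrd1 (chromosome 19, 36118903 to 36120686) and had 40.8 and 39.7 CPM in the mutant and 16.2 and 11.8 CPM in the wild type (log2 fold change 1.53, SE 0.18, edgeR adjusted p = 2e-04). Actc1, the cardiac actin gene and a classic SRF target, had 3 of the 5 lower peaks and 1 higher peak. The lower peak with the smallest p (chromosome 2, 114046828 to 114048615) had 13.3 and 14.1 CPM in the mutant and 23.6 and 37.3 CPM in the wild type (log2 fold change -1.16, SE 0.20, edgeR adjusted p = 0.00336). Leaving out wild-type replicate 2 raised that adjusted p to 0.141 in edgeR.

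At immediate early targets 4 of 207 peaks rose (1.93%) and 1 fell (0.483%), with a median of 0.06. Both shares lay under the 3.05% and 2.45% of all peaks. There were 0 calls in edgeR without either wild-type library, and 11 higher and 2 lower without mutant replicate 1. Of the 4, 3 lay near Mcl1, a survival gene of the BCL2 family. The one with the smallest p (chromosome 3, 95667746 to 95668343) had 28.3 and 24.0 CPM in the mutant and 14.3 and 16 CPM in the wild type (log2 fold change 0.79, SE 0.18, edgeR adjusted p = 0.0153), a call lost without either wild-type library. The lower peak, in Bin3 and 38981 bp from Egr3 (chromosome 14, 70121594 to 70122120), had 3.22 and 3.28 CPM in the mutant and 7.53 and 5.73 CPM in the wild type (log2 fold change -1.02, SE 0.29, edgeR adjusted p = 0.0431). That call was lost with DESeq2, with limma voom and without either wild-type library or mutant replicate 1, at adjusted p-values up to 0.318. Elk1, Elk3 and Elk4 encode the ternary complex factors. None of the 41 peaks near them was called by edgeR, DESeq2 or limma voom with all 4 libraries, default scaling and genotype only. With cyclic loess offsets edgeR called 1 higher, and leaving out a mutant library gave 2 higher (replicate 1) or 1 higher and 1 lower (replicate 2). In edgeR with all libraries 3 of them had an unadjusted p under 0.05, and the median was -0.03.

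**Figure D5:**
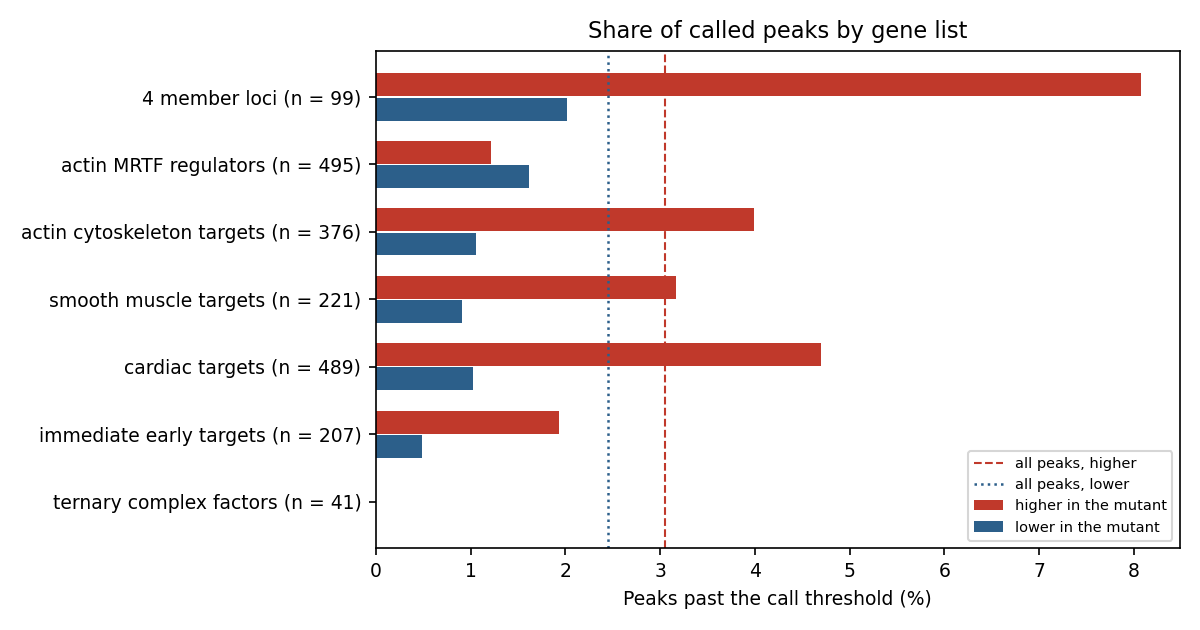
Percent of peaks called higher or lower in the mutant for the 4 member loci and 6 pathway lists, with dashed and dotted lines at the shares over all peaks (3.05% higher, 2.45% lower). In the edgeR fit with all 4 libraries, TMM and genotype only, the 41 peaks of the ternary complex factors hold no call.

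CArG boxes were found in the 250 bases before a start site of Srf alone among the 3 members with an entry. They occurred at 6 of 17 cytoskeletal targets (Actg1, Cnn2, Fhl1, Lima1, Myl9 and Vcl), 4 of 16 cardiac targets (Acta1, Actc1, Dmd and Myl7) and 2 of 8 immediate early targets (Dusp5 and Egr2). At upstream regulators they occurred at 1 of 16 genes, Fhl2, and at none of 10 smooth muscle targets and 3 ternary complex factors. Over all 27025 genes of the promoter table the share was 1.62%. Boxes outside these windows were not searched, and only 10 of the 14 smooth muscle targets had an entry. A window without a match may still hold a variant form of the box. The target lists were written as targets of SRF and its coactivators, so their shares are no independent evidence.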

How the data were processed

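ATAC-seq was done on 4 mouse heart libraries, 2 Carm1 mutant and 2 wild type. Per the labels, library preparation was done commercially. FastQC, Bowtie2 and build mm10 are credited to the submitters' processing notes. Counts depend on the peak caller, duplicate handling, transposase read shift and construction of the common peak set; for these, details were not given in the sources used here. The authors deposited raw counts per peak, whole numbers without normalization, and each column matched 1 sample title.

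Counts were fitted over all 87948 peaks with the quasi-likelihood test of edgeR 4.0.16 under R 4.3.3 (genotype only, TMM, filterByExpr, which removed none; 99 of 99 member peaks passed). Standard errors come from the test statistic, and the common biological coefficient of variation was 0.166. Locus sums were fitted over all genes of a RefSeq table (GRCm38.p6), which gives gene ends without exons. DESeq2 1.42.0, limma voom 3.58.1, other scalings, filters, windows, a replicate block and left-out libraries were alternatives. The procedure was tested on simulated data. Named member peaks are all called peaks, those at gene ends and the strongest and most changed of each locus. In each list, the peak with the smallest p in each direction and genes with 3 or more called peaks are named. Members and lists were chosen with earlier results of these data known.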

Additional observations from a re-analysis of the deposited data

How the results depend on the processing

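All alternatives kept 0 lower calls at Myocd, 0 calls at Mrtfa and 0 lower calls at Srf. Higher calls at Myocd, 7 with edgeR, numbered 1 with DESeq2, 4 with limma voom and 0 to 9 with 1 library left out. Mrtfb held 1 higher and 2 lower calls; DESeq2 gave 0 and 1, cyclic loess offsets and a mean CPM of at least 2 each left 1 lower call, and leaving out 1 library gave 0 to 1 higher and 0 to 2 lower. Srf gained 2 higher calls at an adjusted p under 0.1. Median log2 fold changes with 1 library left out ran from 0.10 to 0.36 at Myocd, -0.09 to 0.33 at Mrtfa, -0.25 to -0.01 at Mrtfb and 0.14 to 0.31 at Srf; the sums ran from 0.10 to 0.31, -0.21 to 0.18, -0.18 to -0.03 and -0.04 to 0.10. With a window of 5 kb the medians were 0.30 at Myocd, -0.04 at Mrtfb and -0.11 at Srf; with the gene body only they were -0.04 at Mrtfb and -0.11 at Srf; with each peak given to 1 gene the median at Srf was -0.15. The sum at Srf was -0.06, -0.06 and -0.09 in these 3 settings, which leave out peaks of neighbouring genes. Of the pathway peaks, 54 higher and 20 lower, DESeq2 called 34 and 9, an adjusted p under 0.1 gave 119 and 45, and leaving out 1 library gave 12 to 118 higher and 1 to 43 lower. The genes nearest in profile to Myocd shared 0 of 5 with those from gene bodies only, where Cfl2 and Anapc7 were not ranked. The cause of these differences was not tested.

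The replicate numbers of the titles pair the libraries only by number: deviations of replicate 1 from the genotype means correlated at 0.107 over all peaks, with 2 pairs. With these numbers as a replicate block, 2 higher peaks were called at Srf, 9 at Myocd, and 130 higher and 54 lower peaks in the pathway lists, 2 and 1 of them near the ternary complex factors. Depth limits the weakest member peaks most: the one with 7 to 42 reads per library had an SE of 0.47.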
